A study of Mus musculus with 401 samples.

Results

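Cumulus cells of mice at 9 and at 14 months were compared in the second of 2 sets of samples, with 16 libraries at each age. The members were chosen by cell type and age in the labels, and these 32 libraries are part of 401 libraries in all, of single oocytes and of the cumulus cells around them. All mice at 9 and 14 months were B6D2F1 females (C57BL/6 crossed with DBA/2) fed ad libitum and treated for hyperovulation with equine chorionic gonadotropin or with CARD HyperOva. Which agent each mouse received is not given in the sources used here. Ovaries were taken 48 h after injection, and the complexes came from fully grown follicles whose oocytes were at the GV stage, before meiosis resumes. Each library is a pool of the cumulus cells of 1 complex. The libraries at 9 months came from 4 mice with 4 complexes each (mice 21 to 24), and those at 14 months from 5 mice with 2 or 4 complexes each (mice 37 to 41), as the mouse numbers in the labels give them. Complexes of 1 mouse share their animal, so the test was also run over mice, with counts summed per mouse. The names of the complexes begin with B1 or B2, called plate 1 and plate 2 here, and both ages were in both: mice 21, 22, 37, 38 and 39 were in plate 1, and mice 23, 24, 40 and 41 in plate 2. Cumulus libraries of the second set from mice at 2 and 4 months with hyperovulation and at 2 months without it, and those of the middle and old mice of the first set, are used further down for comparison. The comparison asks what changes in cumulus cells between the middle and the late part of reproductive life.

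Cumulus cells are the granulosa cells that stay in contact with the oocyte in the antral follicle and feed it through gap junctions. Mouse oocytes take up little glucose, make little cholesterol and transport some amino acids poorly. In response to factors the oocyte secretes, the cumulus cells run glycolysis, the mevalonate pathway from acetyl-CoA to cholesterol, and amino acid uptake through Slc38a3, and pass pyruvate, sterols and amino acids on. Transcription of the mevalonate and sterol genes is driven by SREBP2, the product of Srebf2, which binds sterol regulatory elements next to sites for NF-Y (the CCAAT box) and Sp1 (the GC box).

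The list of genes of that pathway held 7 of the 16 genes called higher at 14 months, more than any other list, so their promoters are shown first. Of the 22 genes in the list of cholesterol synthesis and uptake, 14 had a promoter window from RefSeq on GRCm38.p6, taken as the 250 bases before the transcription start that RefSeq gives. CCAAT was found on either strand in 14 of these 14, against 37.49% of 27025 genes, and GGGCGG in 13 of 14, against 35.36%. The 27025 are all genes with a window, whether or not they were tested here. The sterol regulatory element core TCACCCCAC was found in 1 of 14, that of Hmgcs1, against 0.555% of all genes. Among the genes called higher at 14 months with a window, CCAAT was in 7 of 11 and GGGCGG in 11 of 11, and among those called lower in 12 of 24 and 13 of 24. None of these motifs contains another, and a match describes letters in the window only. The stretches below hold the matches nearest to the start in Hmgcs1, the synthase that makes HMG-CoA, and in 4 genes called higher at 14 months. They are written 5′ to 3′ in the direction of the gene, with CCAAT, its reverse complement ATTGG and the sterol element in capitals.
Hmgcs1, chr13:119690201-119690350, plus strand: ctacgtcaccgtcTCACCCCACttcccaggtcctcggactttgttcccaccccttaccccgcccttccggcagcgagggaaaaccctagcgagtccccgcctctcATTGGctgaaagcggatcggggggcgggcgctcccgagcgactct
Mvd, chr8:122443423-122443522, minus strand: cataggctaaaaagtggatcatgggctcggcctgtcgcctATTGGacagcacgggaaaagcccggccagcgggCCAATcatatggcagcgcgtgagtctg
Idi1, chr13:8885551-8885575, plus strand: cctccagctgATTGGcgagcccggg
Cyp51, chr5:4104712-4104736, minus strand: ctgtccgccaCCAATctggtcctga
Msmo1, chr8:64733619-64733643, minus strand: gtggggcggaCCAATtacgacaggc
For Idi1, Cyp51 and Msmo1 the 25 bases around the site are shown. In these 3 genes the GENCODE gene begins further upstream than the RefSeq start, so these stretches lie inside the GENCODE gene.

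Total counts ran from 721757 to 981049 at 9 months and from 573705 to 993336 at 14 months, with 17720 to 19662 genes detected per library, and genes encoded in mitochondria took 6.25 to 19.3% and 6.67 to 15.9% of the counts. No pair of libraries was a duplicate. The summed level of 16 markers of cumulus and granulosa cells was 6244 to 16037 CPM (the count of a gene relative to the TMM-scaled total of its library) at 9 months and 7008 to 22734 CPM at 14 months. The 3 oocyte markers that passed the filter, of 12 listed, summed to 0 to 27.8 CPM at 9 months and 6.52 to 35.6 CPM at 14 months, immune markers to at most 48.4 CPM and endothelial markers to at most 34.6 CPM in any library. Markers of theca and stroma summed to 24.3 to 423.6 CPM and 26.5 to 165.3 CPM. One library at 9 months, from mouse 23, stood apart: its 12 luteal markers summed to 2279.6 CPM, against a median of 290.2 CPM in the other 31 libraries and 606.6 CPM in the next highest, and Lhcgr, Sfrp4 and Cyp11a1 were at 849, 653 and 1277 CPM in it. Counts of genes that passed are given with and without this library.

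In the test over libraries, enzymes of cholesterol synthesis rose in cumulus cells between 9 and 14 months. The amino acid transporter Slc38a3, the cAMP phosphodiesterase Pde7b and a mixed group of membrane, matrix and signalling genes fell. Of these falls only that of Pde7b passed 5% over mice, and no gene of the cholesterol list did. Of 22364 genes tested over libraries with plate as a term, 52 passed 5% (0.233%), 16 higher (0.0715%) and 36 lower (0.161%) at 14 months, in edgeR's quasi-likelihood test with Benjamini-Hochberg adjustment. Of the 16 higher genes, 7 were in the cholesterol list and 3 more, Gm43738, Gm3571 and Gm5873, resemble its member Fdps. In these pools, fewer cells of a type and less RNA per cell cannot be told apart. Of the 52 genes, 43 are protein-coding, 41 had a mean of at least 10 CPM, and log2 fold changes (14 against 9 months) ran from -3.41 to 2.75.

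Over mice, 4 against 5, 3 genes passed: Ak4, a mitochondrial adenylate kinase, and Acat2, which makes acetoacetyl-CoA in the cytosol, rose, and Pde7b fell (adjusted p of 0.0287, 0.0479 and 0.0479 in edgeR; 0.0134% of the genes). The other 49 of the 52 genes did not pass over mice, with adjusted p of 0.0577 to 0.325 in edgeR, so the rises and falls given below for them are differences over libraries. The mean CPM of every mouse at 14 months lay beyond that of every mouse at 9 months in 40 of the 52 genes, 12 of the 16 higher and 28 of the 36 lower, against 2.45% of all genes (0.85% higher and 1.6% lower), with both readings taken from the same libraries. All 52 genes had the same sign in plate 1 and plate 2, as did 11965 of the 22364 genes. The 52 were chosen on both plates together, so their agreement in sign was close to fixed by the choice. Without the library with high luteal markers, 30 genes passed (0.134%), 12 higher and 18 lower, all 30 among the 52, and the other 22 kept their sign with an unadjusted p under 0.05. Over mice 0 genes passed in edgeR without that library (1670 at an unadjusted p under 0.05), while DESeq2 called 135 genes over mice with it. Leaving out a whole mouse gave 3 to 56 genes over libraries, the fewest without mouse 21. Idi1 was the only gene that passed with any of the 9 mice left out, the others passing in 0 to 8 of the 9 cases. Gramd1b, Mark1, Akap1, Kirrel3os and 1700110K17Rik passed in 0 of the 9, and Acly, Dhrs3, Marc2, Man2a2 and Rabgap1l in 1.

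The members of the cholesterol list are described in the order of the pathway. Hmgcs1 makes HMG-CoA, the precursor of mevalonate. It was at 245 ± 85.3 CPM at 9 months and 377 ± 111 CPM at 14 months (SD, n = 16 each) and just missed 5% (log2 fold change 0.60, SE 0.14, adjusted p = 0.0553 in edgeR). The mevalonate pathway kinases Mvk and Pmvk also missed it, at log2 fold changes of 0.54 and 0.53. Mvd, which decarboxylates the product to isopentenyl diphosphate, rose from 27.7 ± 10.6 to 47.9 ± 19.2 CPM (log2 fold change 0.76, SE 0.17, adjusted p = 0.0455 over libraries and 0.18 over mice in edgeR).

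Idi1, which isomerises isopentenyl diphosphate to dimethylallyl diphosphate and lies at chr13:8885501-8892451 (GRCm38), had the lowest p of all genes. Its level was 20.4 CPM in the lowest, 45.8 in the median and 83.1 in the highest library at 9 months, and 53, 83.3 and 141 CPM at 14 months. All 16 libraries at 14 months were above the median at 9 months, and all 16 at 9 months were below the median at 14 months. Mouse means were 33.6 to 67.1 CPM at 9 months and 58.8 to 113 CPM at 14 months and overlapped in part, with mice 21 and 22 lowest and mice 40 and 41 highest. Idi1 rose by a log2 fold change of 0.83 (SE 0.13, adjusted p = 0.00312 in edgeR), at 0.96 within plate 1 and 0.72 within plate 2, and it passed 5% with any of the 9 mice left out. Over mice the log2 fold change was 0.84 with an adjusted p of 0.0616 in edgeR.

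Fdps, which joins these units to farnesyl diphosphate, rose from 89.5 ± 23.7 to 135 ± 22.5 CPM (log2 fold change 0.60, SE 0.11, adjusted p = 0.0162 over libraries and 0.0832 over mice in edgeR). Its mouse means, 74.1 to 98.2 CPM at 9 months and 124 to 153 CPM at 14 months, did not overlap. The 3 enzymes that carry farnesyl diphosphate to lanosterol, Fdft1, Sqle and Lss, had log2 fold changes of 0.32, 0.35 and 0.55 and did not pass 5%.

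Past lanosterol, Cyp51, the lanosterol demethylase, was at 72.4 CPM in the lowest, 119 in the median and 172 in the highest library at 9 months and at 129, 167 and 232 CPM at 14 months. Its mouse means did not overlap, at 104 to 137 and 156 to 210.3 CPM, and it rose by a log2 fold change of 0.57 (SE 0.11, adjusted p = 0.0162 over libraries and 0.0758 over mice in edgeR). Msmo1, which oxidises the 4-methyl groups of the sterol ring, rose from 246 ± 50.4 to 331 ± 59.7 CPM, and its mouse means overlapped. Dhcr7, the reductase of 7-dehydrocholesterol, rose from 88.4 ± 29.4 to 137 ± 34.7 CPM, with a log2 fold change of 0.61. Its mouse means were 79.8 to 103 CPM at 9 months and 106 to 178 CPM at 14 months and did not overlap. Nsdhl, Tm7sf2 and Sc5d lay above 0 at 0.54, 0.48 and 0.29 without passing 5%.

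Scarb1, a receptor that takes cholesterol from HDL, and the regulators Srebf2 and Insig1 did not pass 5%. Scarb1 was at 358 ± 102 and 388 ± 70.2 CPM (log2 fold change 0.11). Srebf2 was at 149 ± 34 and 167 ± 31.5 CPM (0.17, unadjusted p = 0.0847 in edgeR), and Insig1, which holds SREBP2 back in the endoplasmic reticulum, at 0.48.

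As a whole, 22 of the 22 genes of the list had a positive log2 fold change, against 45.2% of all genes tested, and 18 had an unadjusted p under 0.05 and a higher level at 14 months, against 4.02%. The median log2 fold change of the list was 0.50, against -0.03 for all genes. It was 0.45 within plate 1, 0.44 within plate 2 and 0.54 without the library of high luteal markers, where 6 members passed 5%. The 7 members that passed over libraries became 0 over mice, 0 with all 5 cumulus groups in one model, 1 in plate 1 alone, 0 in plate 2 alone, and 1 without mouse 21, 37, 38 or 41, in edgeR. Mice did not overlap in 10 of the 22 genes, against 0.85% of all genes that lay higher in every mouse at 14 months. The summed level of the list was 2296 CPM in the lowest, 3099 in the median and 4467 in the highest library at 9 months, and 3472, 4238 and 5352 CPM at 14 months. Members share a pathway and libraries and are not replicates of each other. The list was chosen with earlier results of these data known, and its 7 called genes count in these shares.

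**Figure D1:**
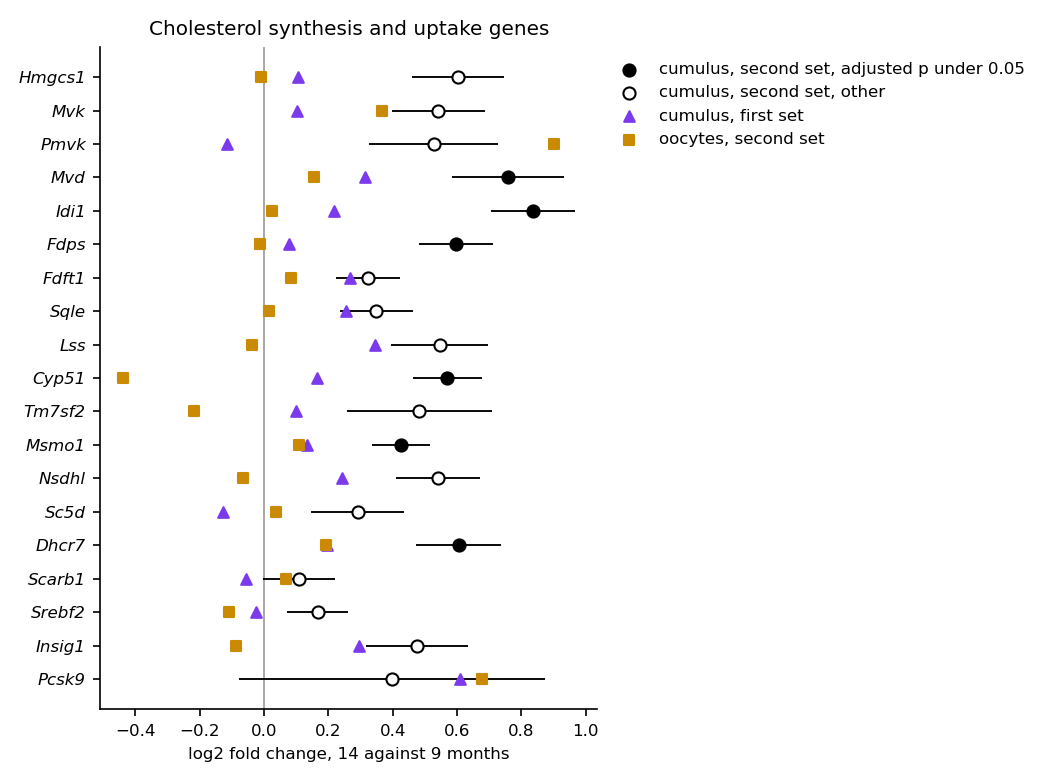
The log2 fold change of 14 against 9 months (x axis) for 19 genes of the cholesterol list in pathway order (y axis). Circles are cumulus cells of the second set with bars of 1 SE, filled where the adjusted p was under 0.05 in edgeR, triangles are cumulus cells of the first set and squares oocytes of the second set. All 19 circles lie above 0, from 0.11 for Scarb1 to 0.83 for Idi1, while oocytes scatter on either side of 0 around a median of 0.04 over the whole list.

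Acat2, the first step from acetyl-CoA, at chr17:12942890-12960747, was at 48.4 CPM in the lowest, 72.5 in the median and 152 in the highest library at 9 months and at 92.9, 152 and 243 CPM at 14 months. Mouse means were 80.3 to 90.6 CPM and 117 to 209 CPM and did not overlap, and the log2 fold change was 0.85 (SE 0.15, adjusted p = 0.00901 over libraries in edgeR). Acly, which makes cytosolic acetyl-CoA from citrate, rose from 396 ± 68.5 to 508 ± 67.9 CPM, and all 16 libraries at 14 months were above the median at 9 months. Fads2, a desaturase of polyunsaturated fatty acids, rose from 42.8 ± 15.9 to 66.2 ± 20.9 CPM, with overlapping mouse means.

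Outside lipid synthesis, Ak4, at chr4:101419277-101466995, rose from 75.1 ± 32.3 to 129 ± 20.5 CPM (log2 fold change 0.78, SE 0.17, adjusted p = 0.0314 over libraries in edgeR), with mouse means of 69.0 to 80.2 CPM and 114 to 140.4 CPM. Tuba1a, an alpha-tubulin, rose from 165 ± 41.8 to 228 ± 52.8 CPM with overlapping mice. Myzap rose from a level near 0, 0.219 ± 0.471 CPM, to 2.29 ± 2.85 CPM.

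Some of these levels rest on reads shared between similar genes. The share of libraries whose deposited count was not a whole number was 96.9% for Fdps, 90.6% for Idi1, 93.8% for Msmo1 and Tuba1a and 62.5% for Acat2, and it was above 50% in 13 of the 52 genes. Of the 50-base words in GENCODE transcripts, 52.8% of those of Gm3571, 39.8% of those of Gm43738 and 23.9% of those of Gm5873 were also in Fdps, and Gm43738 overlaps Fdps on the same strand. The rises of these 3 genes, at log2 fold changes of 0.70, 0.57 and 0.91, are therefore uncertain as rises of their own. Acat2 shared 39.1% of its words with Acat3, Tuba1a 46.9% with Tuba1c, and Idi1 17.7% with Gm13502.

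The largest fall among genes that passed 5% with a mean of at least 10 CPM was that of Slc38a3, a sodium-coupled transporter of glutamine, histidine and alanine at chr9:107650634-107669530 (GRCm38, GENCODE vM21). It was at 1.39 CPM in the lowest, 20.7 in the median and 113 in the highest library at 9 months and at 0, 2.30 and 19.8 CPM at 14 months. At 9 months, complexes of 1 mouse spread widely, and 3 of the 16 libraries at 14 months had no count. Mouse means did not overlap, at 11.5 to 58.3 CPM and 1.10 to 9.11 CPM. Slc38a3 fell by 2.89 on the log2 scale (SE 0.52, adjusted p = 0.00901 over libraries and 0.0693 over mice in edgeR), at -4.82 within plate 1 and -1.65 within plate 2. With mouse as a random effect it did not pass (adjusted p = 0.0867 in limma). It was the only one of the 16 cumulus and granulosa markers that passed 5%. The others included Inha at 3509.5 ± 819 and 3702 ± 1481 CPM, Inhba at 1689.5 ± 902 and 1668 ± 1266 CPM and Amh at 191 ± 345 and 176 ± 175 CPM.

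Pde7b, which degrades cAMP and lies at chr10:20398004-20725078, was at 6.90 CPM in the lowest, 29.3 in the median and 73.5 in the highest library at 9 months and at 0, 9.44 and 19.9 CPM at 14 months. Mouse means were 21 to 40.2 CPM and 3.24 to 12.9 CPM, so every mouse at 14 months was below every mouse at 9 months. It fell by 2.02 on the log2 scale (SE 0.34, adjusted p = 0.00864 over libraries in edgeR). Gm17230, a pseudogene that lies within Pde7b on the other strand, fell from 5.88 ± 5.05 to 0.993 ± 1.33 CPM. Words of Gm17230 were found in Mybbp1a and Gm5184 but not in Pde7b, so reads of spliced Pde7b RNA can be told from those of Gm17230. No source used here says that counting used strand, so reads of Pde7b introns that fall on Gm17230 cannot be told from its own.

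**Figure D2:**
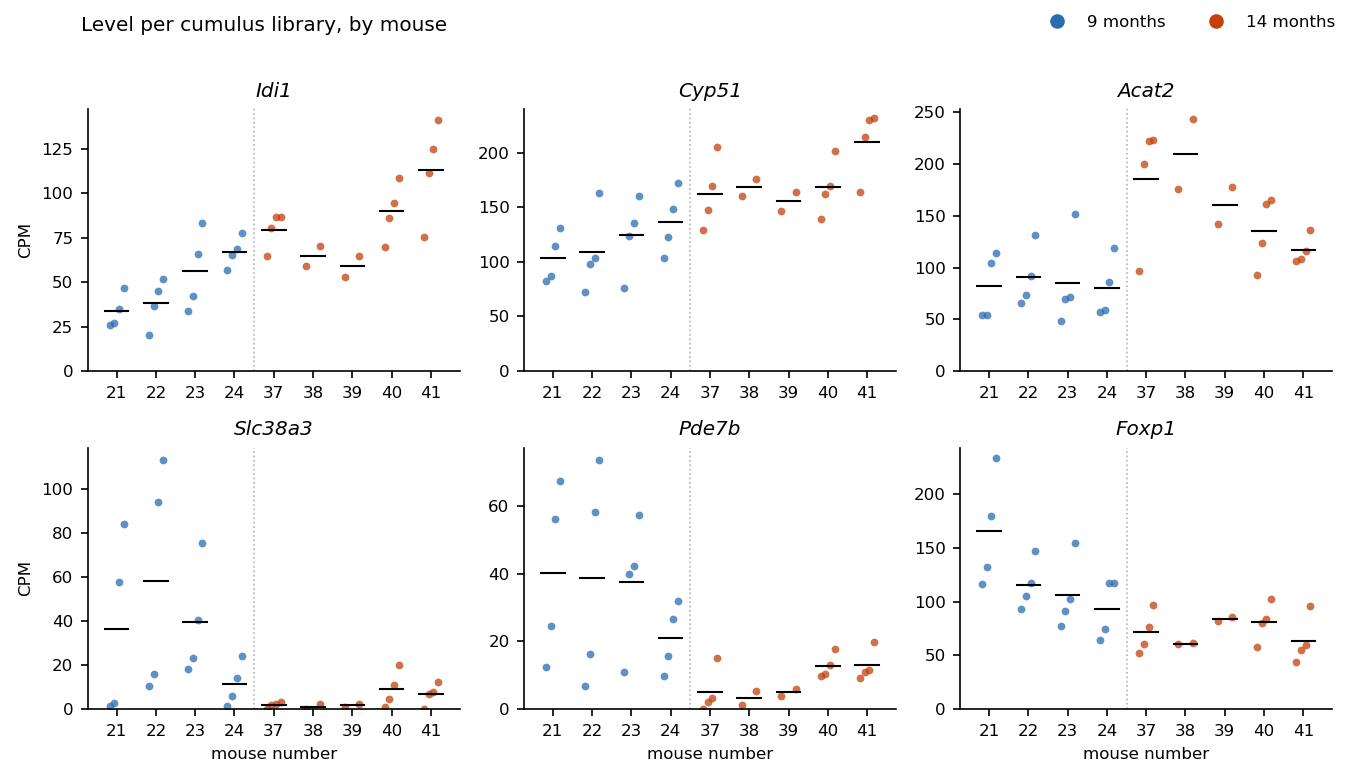
The CPM (y axis, from 0) of 6 genes in each cumulus library, grouped by mouse number (x axis), at 9 months (blue) and 14 months (orange). Points are libraries and bars are mouse means, of 2 or 4 libraries. Mouse means do not overlap between ages for Cyp51, Acat2, Slc38a3, Pde7b and Foxp1 and overlap for Idi1, where mice 23 and 24 reach 56.1 and 67.1 CPM.

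Smoc2, a secreted matricellular protein, fell from 46.8 ± 38.1 to 17.8 ± 7.97 CPM (log2 fold change -1.37, SE 0.27, adjusted p = 0.0176 in edgeR), and its highest value at 9 months, 165 CPM, was in the library with high luteal markers. Without that library Smoc2 still had a log2 fold change of -1.15 and an adjusted p of 0.03 in edgeR. Its adjusted p was 0.0832 over mice in edgeR and 0.0821 with mouse as a random effect in limma, and it passed in 4 of the 9 cases with a mouse left out. Myof, which acts in membrane repair, fell from 34 ± 21.8 to 11.1 ± 9.33 CPM, with mouse means of 23.9 to 44.5 CPM and 5.46 to 20.1 CPM. Adgrv1, a very large adhesion receptor, fell from 178 ± 61.6 to 109.9 ± 40.3 CPM.

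Foxp1, a forkhead transcription factor, was at 63.9 CPM in the lowest, 117 in the median and 234 in the highest library at 9 months and at 43.8, 68.9 and 102 CPM at 14 months. Mouse means were 93.2 to 166 CPM and 60.9 to 84.0 CPM, and the log2 fold change was -0.71 (SE 0.14, adjusted p = 0.0176 over libraries and 0.106 over mice in edgeR). Itpr1, the calcium channel of the endoplasmic reticulum, fell from 268 ± 76.3 to 177 ± 50.8 CPM, and Arhgef28, a guanine nucleotide exchange factor, from 303 ± 76.2 to 209 ± 35.9 CPM. Mice did not overlap in either gene. Lrrk2, a large kinase, fell from 19.3 ± 10.0 to 8.39 ± 4.85 CPM, the kinase Mark1 from 100.4 ± 34.3 to 64.2 ± 16.7 CPM, and Akap1, which anchors protein kinase A at mitochondria, from 38.1 ± 8.50 to 25.4 ± 7.01 CPM.

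Gramd1b, which moves cholesterol from the plasma membrane to the endoplasmic reticulum, fell from 856 ± 268 to 578 ± 140.5 CPM, in the opposite direction to the synthetic enzymes. Its log2 fold change was -0.56 (SE 0.13, adjusted p = 0.0408 over libraries and 0.0769 over mice in edgeR), and its mouse means, 787 to 918 CPM and 515 to 630.2 CPM, did not overlap. The gene 1700110K17Rik, antisense to Gramd1b, fell from 27.4 ± 11.9 to 15.3 ± 5.33 CPM. It shared 6.53% of its words with Gramd1b, and Gramd1b shared 0.654% of its words with it. Most reads of spliced Gramd1b RNA can therefore be told from those of 1700110K17Rik. Reads of Gramd1b introns that fall on 1700110K17Rik cannot. Dhrs3, which reduces retinaldehyde, fell from 31.7 ± 19.9 to 14.6 ± 5.58 CPM, and the Golgi mannosidase Man2a2 from 63.4 ± 21.5 to 39.6 ± 15.1 CPM, and in both genes mouse means overlapped.

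The related genes Fam234a and Fam234b both fell. Fam234a went from 102 ± 29.9 to 61.4 ± 17.3 CPM and Fam234b from 173 ± 29.7 to 119 ± 21.5 CPM (log2 fold changes -0.74 and -0.53, adjusted p = 0.00901 for each over libraries, and 0.0832 and 0.117 over mice, in edgeR). For Fam234b, all 16 libraries at 9 months were above the median at 14 months and all 16 at 14 months below the median at 9 months. Kirrel3os, an antisense RNA of the adhesion gene Kirrel3, fell from 17.7 ± 13.3 to 5.09 ± 5.12 CPM. It overlaps Kirrel3 on the other strand, a gene with a mean of 97.7 CPM and a log2 fold change of -0.47 that was not called. The genes sharing most words with Kirrel3os shared 8 to 10 of its 3750, and Kirrel3 was not among them. Most reads of spliced Kirrel3 RNA can therefore be told from those of Kirrel3os. Reads of Kirrel3 introns that fall on Kirrel3os cannot. The falls of N4bp2l1, Marc2, Fam214a, Pbxip1, Adck5, Rabgap1l and Tmem164 had log2 fold changes between -0.79 and -0.40.

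Several calls were of genes near the detection limit. Klf15, Dscam, Gas1, Rtl8c, Cacnb4 and Gm7298 had means of 2.15 to 2.96 CPM at 9 months and at most 0.260 CPM at 14 months, where 13 to 15 of the 16 libraries had no count. At these totals 1 CPM is about 1 count, so the size of these falls is not well measured. Gm7298 and Mug-ps1 share words with Mug1 and Mug2, and Gm37212 and Gm38243, which fell by 1.25 and 1.07 on the log2 scale, lie within Rabgap1l and Kcnq5 on the same strand.

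In the other lists no gene but Slc38a3 passed 5% in edgeR. Their counts stand against 45.2% of all genes with a positive log2 fold change, 4.02% higher and 6.5% lower at an unadjusted p under 0.05, and 54 genes higher and 105 lower of 22364 in DESeq2. Glycolysis genes had a positive log2 fold change in 14 of 16 and an unadjusted p under 0.05 in 10 of 16, all higher at 14 months, with a median of 0.32. Ldha, which makes lactate from pyruvate, was at 1664 ± 574 and 2339 ± 381 CPM (log2 fold change 0.49, SE 0.14, adjusted p = 0.128 in edgeR), and its mouse means, 1542 to 1770.1 CPM and 2132 to 2845 CPM, did not overlap. Pgk1 and Pfkl lay at 0.45 and 0.36, while Gapdh was level at 134 ± 73.8 and 135 ± 51.4 CPM (0.01, SE 0.19). DESeq2 called 1 of the 16 glycolysis genes, and 12 of the 22 cholesterol genes.

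Core histone genes had positive values in 60 of 67, with 17 higher and 1 lower at an unadjusted p under 0.05 and 1 called by DESeq2. Their median of 0.34 was 0.59 within plate 1 and 0.13 within plate 2. Heat shock and folding genes were positive in 15 of 15 (median 0.17, 2 at an unadjusted p under 0.05, 1 called by DESeq2), and proliferation and replication genes in 23 of 28 (median 0.17, 8 at an unadjusted p under 0.05, none called by DESeq2). The hub genes Fos, Fosb, Sik1, Zfp36 and Jun, which the study's text names as lower with ageing in cumulus cells, in a comparison that included younger mice than these, all had positive values here, and 0 passed in edgeR or DESeq2, with 1 at an unadjusted p under 0.05. Of the 5 hub genes it names as higher with ageing, 4 had positive values (median 0.28), and 0 passed in edgeR or had an unadjusted p under 0.05. Fos was at 1503 ± 1190.3 and 2015 ± 878 CPM.

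On the lower side, extracellular matrix genes had a median of -0.22, with 6 lower and 2 higher at an unadjusted p under 0.05, and 2 lower in DESeq2. Lamb1, a laminin chain, was at 36 ± 32.1 and 12.7 ± 9.99 CPM (log2 fold change -1.55, adjusted p = 0.0615 in edgeR). Of insulin, IGF and FOXO genes, 6 of 23 had positive values, and Insr and Irs1 lay at -0.56 and -0.65, with adjusted p of 0.128 and 0.100 in edgeR. The list of Hippo and CCN targets had positive values in 5 of 11 and a median of -0.0047. Of its genes 2 were lower and 0 higher at an unadjusted p under 0.05, and DESeq2 called 1 lower. Its member Ccn2, a target of Hippo signalling, was at 34.2 ± 34.6 and 10.5 ± 8.85 CPM (-1.71, adjusted p = 0.0897 in edgeR). Genes encoded in mitochondria were positive in 0 of 15 with a median of -0.19, none of them at an unadjusted p under 0.05 or called by DESeq2. The median of the luteal markers, -0.65, went to -0.28 without the library in which they were high.

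**Figure D3:**
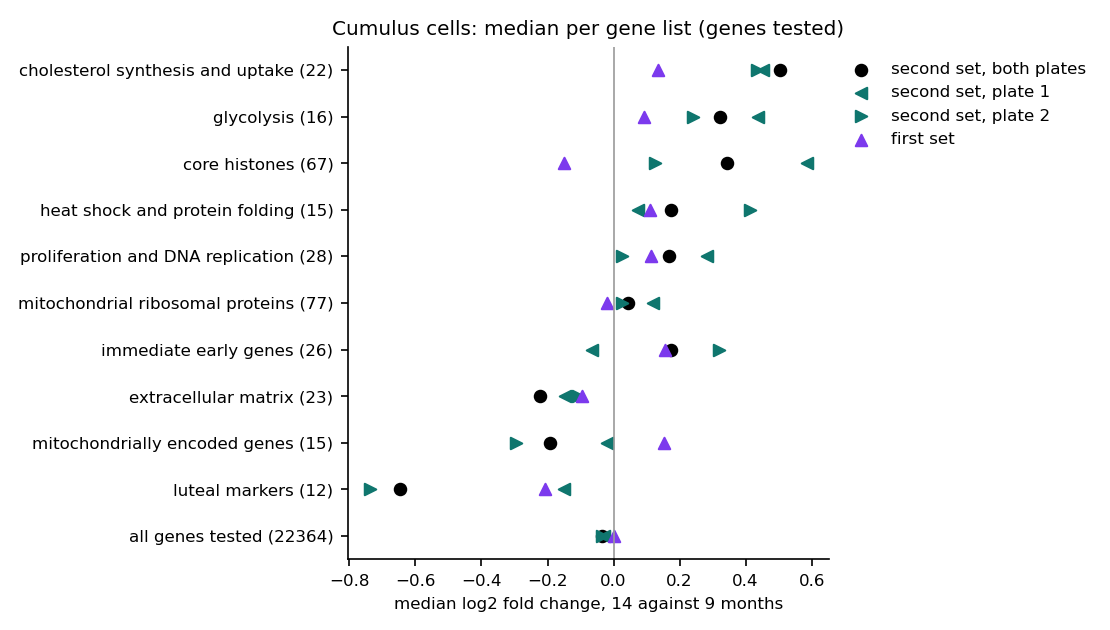
The median log2 fold change of 14 against 9 months (x axis) over the genes tested in each list (y axis, number of genes in brackets) in cumulus cells. Circles are the second set, left and right triangles its plates 1 and 2, and upward triangles the first set. The cholesterol list has the highest median, 0.50, with 0.45 and 0.44 in the plates and 0.14 in the first set, and core histones change sign between the sets, from 0.34 to -0.15.

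The oocytes of the same complexes were compared in the same way. In oocytes, 4 of 22119 genes passed 5% between 9 and 14 months in edgeR (0.0181%), and the median log2 fold change of the cholesterol list was 0.04. Idi1 was at 17.1 ± 3.17 and 17.5 ± 3.44 CPM in oocytes, Acat2 at 17.8 ± 5.05 and 16.9 ± 2.79 CPM, and Foxp1 at 14.1 ± 3.09 and 13.7 ± 3.59 CPM (n = 16 each). Pde7b was lower in oocytes as well, at 4.41 ± 5.28 and 1.06 ± 0.771 CPM, without passing 5%. In a test of the age difference in cumulus cells minus that in oocytes, 84 of 16660 genes passed 5% (0.504%), among them 15 of the 41 called genes that could be tested. Cyp51, Acat2 and Ak4 passed it also with counts summed per mouse.

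The first set offers other mice of the ages given as middle and old, with 16 cumulus libraries each, under 4 and 2 mouse labels. There, 10 of 23160 genes passed 5% in edgeR (0.0432%), 0 over mouse labels (294 at an unadjusted p under 0.05), and none of the 52. Of the 52 genes, 39 had the same sign in the first set, against 55% of all genes, and 8 had the same sign with an unadjusted p under 0.05, against 4.22%. These were Foxp1, Gramd1b, Fam234a, Gm7298, Marc2, Gm17230, Acat2 and Arhgef28. Foxp1 was at 98.9 ± 34.5 and 69.5 ± 9.20 CPM and Gramd1b at 594 ± 76.7 and 502 ± 56.4 CPM, and Acat2 at 102 ± 27.8 and 127 ± 37.5 CPM. Slc38a3 was at 36.4 ± 61.9 and 28.9 ± 46.4 CPM there, and Idi1 at 69.0 ± 24.7 and 79.9 ± 31 CPM (unadjusted p of 0.576 and 0.237 in edgeR). In the cholesterol list 18 of 22 genes were positive in the first set, against 50.5% of all genes, with a median of 0.14, and Lss and Insig1 had an unadjusted p under 0.05, against 6.95% of all genes.

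The groups at 2 and 4 months place these levels on a longer scale, here as means over mice with all 5 cumulus groups of the second set scaled together. The summed level of the cholesterol list was 3766 ± 541 CPM at 2 months (n = 5 mice), 2959 ± 766.1 CPM at 4 months (n = 8), 3269.9 ± 118 CPM at 9 months (n = 4) and 4401 ± 248 CPM at 14 months (n = 5). All 5 mice at 14 months were above all 4 mice at 9 months, while the mice at 2 and at 4 months overlapped with those at 9 months. The mice at 14 months, at 4065 to 4713 CPM, overlapped with those at 2 months, at 3005 to 4368 CPM. In 2-month mice without hyperovulation the summed level was 2472 ± 929.6 CPM (n = 8). Slc38a3 was at 27.8 ± 27.8 CPM at 2 months, 99.1 ± 79.7 CPM at 4 months, 37.2 ± 19.8 CPM at 9 months and 4.16 ± 3.68 CPM at 14 months, and at 141 ± 83.0 CPM without hyperovulation. Acat2 was at 126 ± 20.2, 101 ± 34, 86.3 ± 5.08 and 165 ± 37.8 CPM at 2, 4, 9 and 14 months, and at 70.3 ± 22.1 CPM without hyperovulation. Ak4 was at 130 ± 20.7, 112 ± 42, 76.8 ± 6.23 and 134 ± 10.2 CPM at the same ages, and at 62.8 ± 27 CPM without hyperovulation. In Acat2, Slc38a3 and Ak4, mice at 14 months also overlapped with those at 2 months. The order of the ages was thus not a steady rise or fall in the summed list or in any of these genes.

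**Figure D4:**
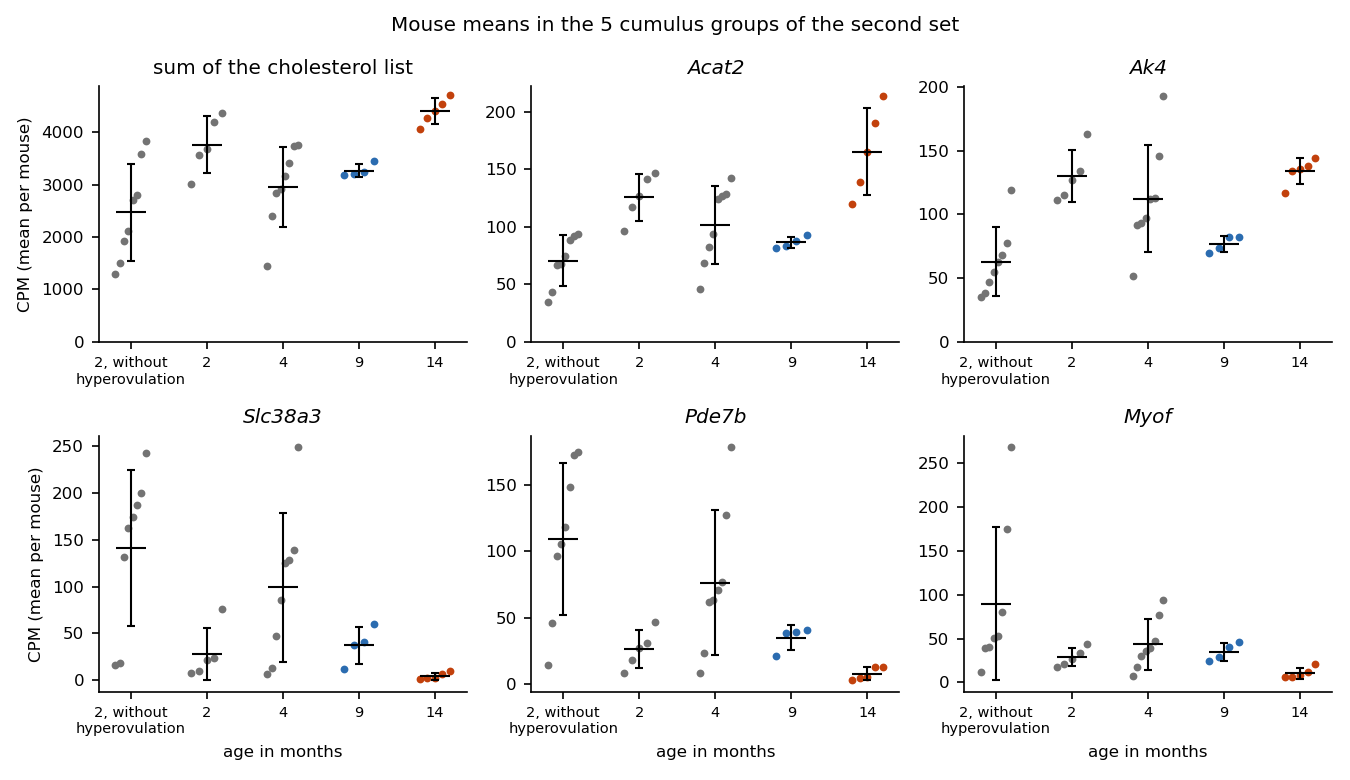
The mean CPM per mouse (y axis, from 0) of the summed cholesterol list and of 5 genes in the 5 cumulus groups of the second set (x axis, age in months). Points are mice, horizontal bars the mean over mice and vertical bars 1 SD. Acat2 and Ak4 at 14 months lie above all mice at 9 months, Slc38a3, Pde7b and Myof below them, and mice without hyperovulation hold the highest values of Myof, up to 268 CPM.

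Hyperovulation itself was compared at 2 months, a comparison added after seeing the data. Between 2-month mice with (24 libraries of 5 mice) and without it (32 libraries of 8 mice), which share no sample with the groups at 9 and 14 months, 3072 of 24161 genes passed 5% in edgeR (12.7%, 5.97% higher and 6.75% lower with it), and 623 over mice (2.58%). Of the 52 genes, 40 had the same sign as between 9 and 14 months, against 55.1% of all genes, and 21 passed in the same direction, against 8.35%, with 0 called the other way. Over mice, 11 of the 52 passed in the same direction, 9 of the 16 higher and 2 of the 36 lower genes, against 1.97% of all genes. All 16 genes higher at 14 months were also positive with hyperovulation, and 10 of them passed over libraries. Slc38a3 fell by 2.12 on the log2 scale with hyperovulation (adjusted p = 0.000421 in edgeR), Pde7b by 1.72 and Myof by 1.5, and over mice Slc38a3 and Pde7b passed and Myof did not (adjusted p of 0.0458, 0.027 and 0.204 in edgeR). Fads2 rose by 1.07, Ak4 by 0.99 and Acat2 by 0.81, all 3 also over mice. Smoc2 and Dhrs3 had values of 0.30 and 0.82 there, opposite to their falls with age, without passing 5%.

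**Figure D5:**
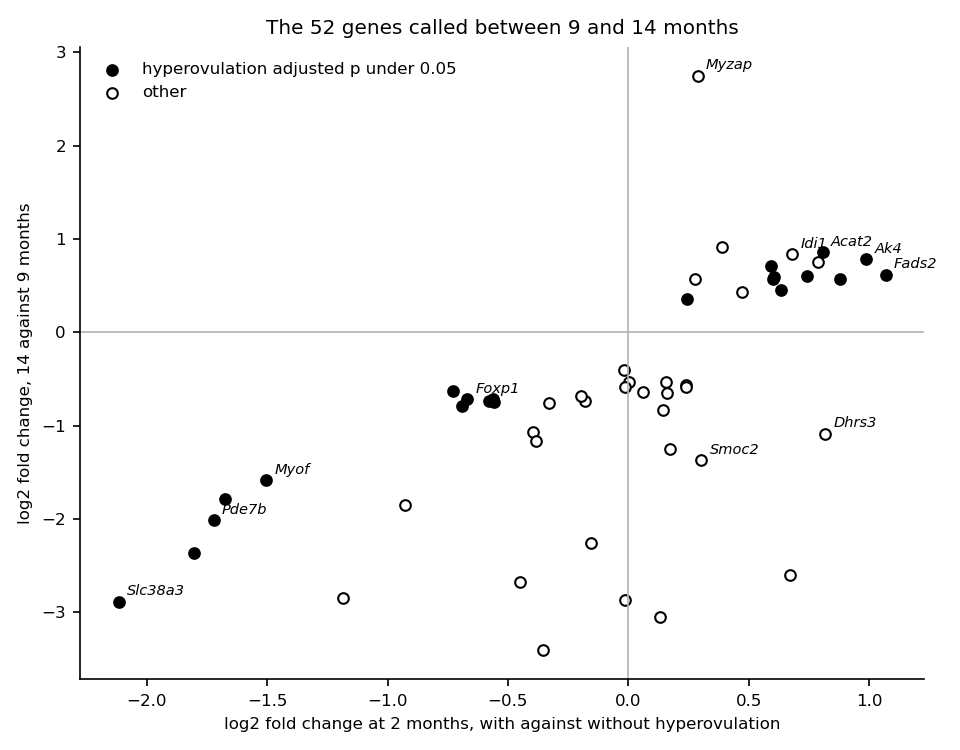
The log2 fold change of 14 against 9 months (y axis) of the 52 called genes against their log2 fold change at 2 months with against without hyperovulation (x axis), both in cumulus cells. Filled points passed 5% for hyperovulation in edgeR, 21 in all, and lie in the lower left or upper right.

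The glycolysis list had a median of 0.71 with hyperovulation, with 13 of 16 genes called higher, and the cholesterol list 0.60, with 11 of 22 called higher. Immediate early genes had a median of -0.71 with hyperovulation and 0.17 between 9 and 14 months. Which agent and how strong a response each mouse at 9 and 14 months had are not given in the sources used here, and their part in the age differences was not tested.

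Age took a small share of the variation. Over all genes tested, plate accounted for 7.13% of the variance, age for 4.33%, their interaction for 3.41%, mice within age and plate for 14.6% and complexes of 1 mouse for 70.5%, with 3.23%, 3.23%, 3.23%, 16.1% and 74.2% given by the degrees of freedom alone. On the first 3 principal components, which held 11.4, 9.80 and 5.99% of the variance, the difference between the mouse means of the ages gave p = 0.302, 0.222 and 0.690 (two-sided exact permutation tests over 126 arrangements). With plate means removed first and mice exchanged only within their plate, component 3 passed 5%, with an exact permutation p of 0.0167, the smallest that the 60 arrangements can give, against 0.567 and 0.0833 for components 1 and 2.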

How the data were processed

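RamDA-seq, which copies full-length total RNA from minute inputs, was applied to the cumulus pool of each complex. After trimming, the authors aligned reads to GRCm38 (HISAT2 2.0.5) and assigned them to GENCODE vM15 with featureCounts 1.5.1, sharing multi-mapped reads between genes, so the deposited values are expected counts (33.3% of the nonzero ones were not whole). The design had assumed plain counts, and the values were rounded. The authors also deposited RPKM values, used here only for an alternative. Reads carry no molecular identifiers.

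Genes detected in 5 or more of the 32 libraries entered edgeR 4.0.16 under R 4.3.3 (quasi-likelihood F test after TMM, terms for plate and age, Benjamini-Hochberg at 5%). The same model was run on counts summed per mouse. Against oocytes, the terms were plate, cell type, age and the interactions of cell type with plate and with age. Complex was not a term, so the pairing of an oocyte with its cumulus cells was not used. The first set and hyperovulation at 2 months were fitted separately. Alternatives used DESeq2 1.42.0 and limma 3.58.1. CPM values use TMM-scaled totals. Scripts were tested on simulated data. The labels tie libraries to mice, but no source says how plates were filled.

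Genes named are the 10 largest rises and falls among those passing 5% with a mean of at least 10 CPM, all passing over mice, up to 4 passing members of each list (otherwise the 2 most abundant), and hub genes of the study's text. Other called genes and other members of the lists were named after their values were seen. The members and lists were chosen with earlier results of these data known. Symbols came from GENCODE vM21 (42147 of 42349 identifiers) and promoters from RefSeq (GRCm38.p6). One complex that the study removed from the first set is not named in the sources used here, so all its middle and old cumulus libraries were kept. Of the cholesterol list, 3 genes are counted but not reported by name here.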

Additional observations from a re-analysis of the deposited data

Results flagged for a closer look

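In 16 genes named above or among the lists, the difference between 14 and 9 months in cumulus cells departed from that in the oocytes of the same complexes, past an adjusted p of 5% in edgeR's test of the difference itself (84 of 16660 genes, 0.504%, passed it). The value given for each is the log2 fold change in cumulus cells minus that in oocytes. It was above 0 in 4 enzymes: Cyp51 at 0.98, Acat2 at 0.91, Idi1 at 0.78 and Ak4 at 0.74. It was below 0 in genes that fell in cumulus cells, at -2.84 for Dscam, -1.45 for N4bp2l1, -1.42 for Smoc2, -1.19 for Dhrs3, -0.88 for Fam234a, -0.85 for Fam214a, -0.81 for Marc2, -0.68 for Itpr1, -0.60 for Akap1, -0.59 for Fam234b and -0.50 for Tmem164. Levels were low for Dscam in cumulus cells (2.15 and 0.242 CPM) and for N4bp2l1 in oocytes (1.21 and 1.96 CPM). The sizes of these differences are therefore not well measured.

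Malat1, a nuclear noncoding RNA, stood at -1.61, with a log2 fold change of -0.36 in cumulus cells (adjusted p = 0.319 in edgeR) and 1.20 in oocytes. Its level in oocytes was low, at 3.80 ± 3.13 CPM at 9 months and 9.08 ± 6.91 CPM at 14 months. In cumulus cells of the first set it was at 3756 ± 982 and 3742.5 ± 604 CPM. The markers of cumulus and granulosa cells had a median log2 fold change of 0.78 in the same oocytes. The source of these RNAs in the oocyte libraries was not tested. With counts summed per mouse and cell type, the difference passed 5% in edgeR for Malat1, Acat2, Ak4 (adjusted p = 0.0277 each) and Cyp51 (0.0414) and for none of the other 12. Without the complex of high luteal markers, 48 of 16660 genes passed.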

How the results depend on the processing

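The count of 52 genes was 32 without the plate term, 3 over mice, 159 with DESeq2, 32 with all 5 cumulus groups in one model, 9 in plate 1 alone and 0 in plate 2 alone (1804 at an unadjusted p under 0.05 in edgeR), and, added after seeing the data, 30 without the library of high luteal markers. With a mouse left out it ran from 3 (mouse 21) to 56 (mouse 24), with 4 without mouse 37, 6 without mouse 38 or mouse 41, 27 without mouse 40, 32 without mouse 23 and 34 without mouse 39. Over mice the 3 genes became 0 without the plate term (1502 at an unadjusted p under 0.05), 135 with DESeq2, 1 with filterByExpr, 0 to 17 with a mouse left out and 0 without that library (1670 at an unadjusted p under 0.05). The 84 genes that differed between cumulus cells and oocytes became 47 without the plate term, 6 over mice and 48 without that complex. The 10 genes of the first set became 0 over mouse labels and 0 to 11 with a label left out, 0 being without the label Old1_2 (1352 at an unadjusted p under 0.05). Component 3 passed with plate means removed (exact permutation p of 0.0167). RLE size factors (52), filterByExpr (61), a count in 1 library (56) and mouse as a random effect (72) moved the count of 52 by less than 1.5 times. The correlation within mice was -0.0204 in the fit with mouse as a random effect. That fit therefore did not widen the errors for libraries that share a mouse. No gene called changed sign under any alternative run, and the median of the cholesterol list stayed between 0.44 and 0.54. Of the 52 genes, 32 passed without the plate term, 42 of the 42 with an adjusted p in DESeq2, 51 with RLE 14 with all 5 groups in one model and 40 with mouse as a random effect, where 12 were lost, among them Slc38a3 (adjusted p = 0.0867), Smoc2 (0.0821), Dhrs3 (0.0818) and Marc2 (0.107) in limma. No paired analysis was possible because no mouse number occurs at both ages. Depth limits genes near 1 count per library.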
